A study of Homo sapiens with 3 samples.

Results

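The enzymes of cholesterol synthesis and of fatty acid synthesis, with the proteins that switch their genes on, were followed in spheres of an osteosarcoma line grown untreated, with TGF-beta1 or under hypoxia. The 34 genes were listed by their known roles, and 33 of them were named in the deposited table, among 14836 named genes in all. ACACA, which codes for the acetyl-CoA carboxylase of fatty acid synthesis, had no named feature and was not analysed here. The 33 genes form a sterol arm of 18 enzymes, a fatty acid arm of 9 enzymes, 4 genes of the SREBP machinery and 2 genes of sterol transport. Total RNA came from 3 cultures of MNNG/HOS, a human osteosarcoma line that was derived from HOS cells by chemical transformation, and each culture was read on 1 NimbleGen one-colour array. All 3 cultures grew in serum-free DMEM/F12, and the floating spheres (sarcospheres) were taken at day 5. The untreated culture had no addition, the TGF-beta1 culture received 4 ng/mL of that cytokine, and the hypoxia culture was held at low oxygen, at a level not given in the sources used here. With 1 array per group there was no replicate error and no test, and every statement of direction is about these arrays.

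Sterol regulatory element-binding proteins (SREBPs) are transcription factors made as precursors in the membrane of the endoplasmic reticulum. When sterols are scarce, the escort protein SCAP carries the precursor to the Golgi, where proteases release the active factor. When sterols are plentiful, INSIG proteins hold SCAP back. The SREBF2 product acts mainly on cholesterol synthesis and uptake genes and the SREBF1 products mainly on fatty acid genes, with overlap. Oxygen is a substrate of several enzymes on both arms, among them squalene epoxidase (SQLE), the sterol demethylase CYP51A1, the sterol oxidases MSMO1 and SC5D, and the desaturases SCD, FADS1 and FADS2.

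Values are the authors' processed intensities in arbitrary linear units, and a difference is given on the log2 scale with no pseudocount. The untreated, TGF-beta1 and hypoxia arrays had median intensities of 383, 363 and 395 over 38572 features. A gene is called above the floor in a comparison where the brighter of the 2 arrays lay at or above its median over named genes (410, 402 and 427 in the same order), and it counts as higher or lower where it then differed by at least 1.5-fold. LSS has 2 features and the other 32 genes have 1 each, so agreement between features could be seen for LSS alone. Across other genes with several features above the floor, the log2 differences of a gene's features had a pooled SD of 0.31 for TGF-beta1 minus untreated (699 genes), 0.34 for hypoxia minus untreated (689 genes) and 0.39 for TGF-beta1 minus hypoxia (700 genes). This SD leaves out the spread between cultures. Of the mesenchymal and osteoblastic markers, 7 of 9 named in the table reached the gene median on some array, VIM, FN1 and SPARC among them, while ALPL and THY1 lay between 56.1 and 77.5 on all arrays. Of 3 hepatocyte markers 1 did, SERPINA1 at 1552 untreated, 1363 with TGF-beta1 and 2193 under hypoxia, while APOA1 and APOB lay between 61.8 and 91.2. None of the 7 adipocyte markers and none of the 5 blood and endothelial markers reached it, and ADIPOQ and PLIN1 lay between 53.3 and 63.7 on all arrays. In RNA from whole cultures, fewer cells expressing a gene and less RNA per cell cannot be told apart.

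**Figure D1:**
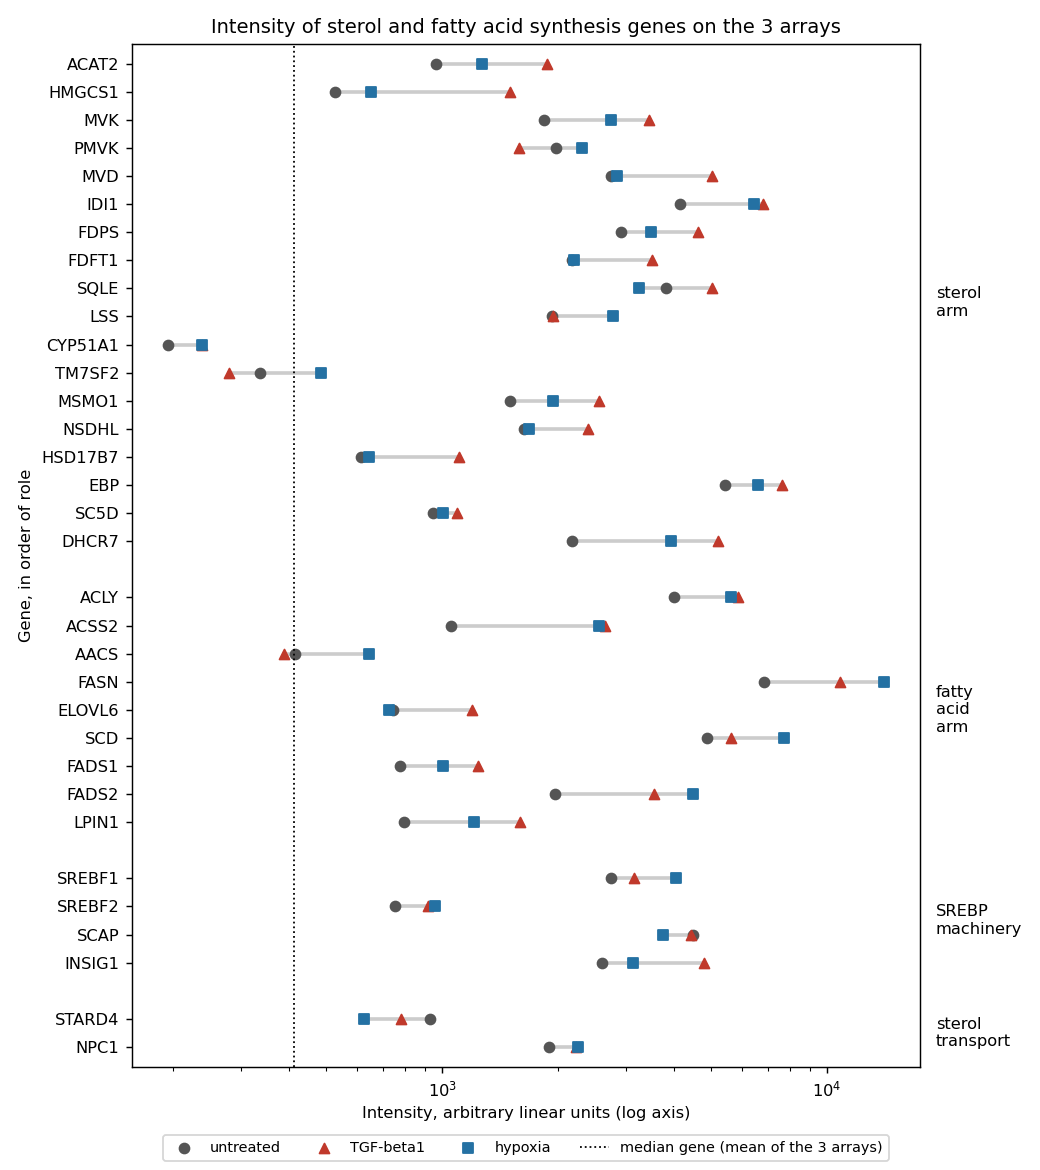
Intensity of the 33 genes on the untreated (grey circle), TGF-beta1 (red triangle) and hypoxia (blue square) arrays, on a log axis in arbitrary linear units, with a dotted line at the mean of the 3 arrays' median gene. The untreated point is lowest for 15 of 18 sterol arm genes and 7 of 9 fatty acid arm genes; levels of different genes cannot be compared, since their probes differ.

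The sterol arm was brighter with TGF-beta1 than without treatment along most of its length. The median log2 difference over the 18 enzymes was 0.67 (1.59-fold), against -0.0028 over all named genes. With 16 enzymes above the floor, 10 passed the 1.5-fold limit upward, 0 downward and 6 lay within it. The same limit was passed upward by 12.6% and downward by 11.5% of all 7950 genes above the floor in this comparison. At 2-fold the arm had 2 higher enzymes, HMGCS1 and DHCR7, against 3.25% of genes that were that much higher and 3.86% that were lower. Of the 18 enzymes 16 read above untreated by any amount, against 49.7% of all named genes.

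In the early steps of the arm, up to farnesyl pyrophosphate, 6 of 7 genes were at least 1.5-fold higher with TGF-beta1, and the median difference was 0.87. Of all genes above the floor 12.6% were that much higher and 11.5% that much lower. HMGCS1, which condenses acetyl-CoA and acetoacetyl-CoA to HMG-CoA, read 528 untreated, 1497 with TGF-beta1 and 652 under hypoxia. The TGF-beta1 array was the high one of the 3, and its log2 difference of 1.504 from untreated exceeded that of 99.2% of genes above the floor. ACAT2, the cytosolic thiolase that makes acetoacetyl-CoA, read 966, 1873 and 1271 in the same order, a difference of 0.95 with TGF-beta1. MVK, mevalonate kinase, read 1837, 3437 and 2751 and differed by 0.90. The hypoxia value of both genes lay between the other two. MVD, which makes isopentenyl pyrophosphate, read 2737, 5015 and 2853, a difference of 0.87 with TGF-beta1 and of 0.06 with hypoxia. FDPS, farnesyl pyrophosphate synthase, read 2917, 4615 and 3484 (0.66 with TGF-beta1), and processed copies of this gene elsewhere in the genome may share its signal. IDI1, the isomerase of isopentenyl pyrophosphate, was high on both treated arrays, at 4158 untreated, 6814 with TGF-beta1 and 6456 under hypoxia. PMVK, which adds the second phosphate to mevalonate, did not follow its neighbours: it read 1981, 1585 and 2313, lowest with TGF-beta1, a difference of -0.32.

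The steps from squalene to cholesterol were less even. Of 11 genes, 9 were above the floor and 4 of these passed the limit upward with TGF-beta1, with a median of 0.49 over the 11. In the same comparison 12.6% of all genes above the floor passed it upward and 11.5% downward. DHCR7, the reductase of the last step of one branch, read 2172 untreated, 5213 with TGF-beta1 and 3930 under hypoxia. It was high on both treated arrays, by 1.26 and 0.86. HSD17B7, a sterol ketone reductase, read 615, 1106 and 644 and was high with TGF-beta1, at 0.85 against 0.07 under hypoxia. HSD17B7 has a near-identical pseudogene that may share its probes. MSMO1, the sterol C4-methyl oxidase, read 1503, 2550 and 1944 (0.76 with TGF-beta1). FDFT1, squalene synthase, which commits farnesyl pyrophosphate to sterols, read 2180, 3504 and 2199. Its difference was 0.68 with TGF-beta1 and 0.01 under hypoxia.

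The other post-squalene genes lay within 1.5-fold of untreated with TGF-beta1. NSDHL, a sterol dehydrogenase, differed by 0.55 and EBP, a sterol isomerase, by 0.49. SQLE, whose epoxidase step is a known control point, read 3825 untreated, 5028 with TGF-beta1 and 3243 under hypoxia. It read lower under hypoxia than untreated by -0.24, the lowest difference of the arm. FDFT1 (0.01) and NSDHL (0.04) lay near 0 under hypoxia, and their sign turned under other scalings, FDFT1 under all 3 and NSDHL under median centring. SC5D, a sterol desaturase, differed by 0.21 with TGF-beta1. LSS, which closes the ring to lanosterol, differed by 0.01 with TGF-beta1 and 0.52 under hypoxia. Its 2 features gave -0.10 and 0.12 for TGF-beta1 and 0.47 and 0.57 for hypoxia, closer to each other than the pooled SD between features. CYP51A1 read 194, 238 and 238 and TM7SF2, a sterol reductase, read 337, 280 and 485. Both were below the floor in the TGF-beta1 comparison and entered its median but not its counts.

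Promoters were examined because most enzymes of the sterol arm differed in the same direction. RefSeq windows (GRCh38.p14) covering the 250 bases before a transcription start were available for 29 of the 33 genes, 39 windows in all, and were searched on both strands. The letters searched were TCACNCCA and TCACNCCAC, a short and a longer form of the classical sterol regulatory element, CCAAT, the box bound by the SREBP partner NF-Y, GGGCGG, the GC box bound by Sp1, and CACGTG, an E-box. The longer form contains the shorter. CCAAT was found in 75% of the 20 sterol arm windows and in 30.8% of the 13 fatty acid arm windows, against 33.6% of 9872 windows of genes that reached the gene median on some array. The GC box was found in 90% and 84.6% of the windows of these arms, against 65.3%. TCACNCCA was found in 2 of the 20 sterol arm windows and 0 of the 13 fatty acid arm windows, against 2.9% of the 9872 windows. CACGTG was found in 2 of the 20 and 0 of the 13, against 8.7%. These 2 are overlapping windows of SC5D that hold the same site. The 20 windows belong to 15 genes, the 13 to 8 and the 9872 to 6763. Shares are therefore of windows, and a gene or a site can count more than once. A match is a run of letters and not a measured binding site, and the windows are short.

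The members with a TCACNCCA match were MVK, MSMO1 and SREBF2, and the 30 bases round each match are given because they show how far the flanks differ. The positions are chr12:109573588-109573617 for MVK, chr4:165327502-165327531 for MSMO1 and chr22:41832961-41832990 for SREBF2. All are on the plus strand of GRCh38.p14, read from 5′ to 3′, and capitals mark the match.
MVK: gttcgcagttcTCACCCCAgggcgggacac
MSMO1: tctcactatccTCACTCCAtccgcggagcc
SREBF2: atgacgcgccaTCACCCCAcgcaccgcttc
The matches begin 195, 156 and 133 bases before the transcription start that the MVK, MSMO1 and SREBF2 windows end at. The MVK start is an internal one, so its match lies within the span RefSeq gives the gene, while the other two lie upstream of their genes. SREBF2 was the 1 member whose match extends to TCACNCCAC, which 0.942% of the 9872 windows hold.

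The window before the start of HMGCS1, the sterol arm gene with the largest difference, is shown whole to set against these. It lies at chr5:43313413-43313662 on the minus strand, upstream of the gene, and is written 5′ to 3′ along the gene with CCAAT, here on the opposite strand as ATTGG, in capitals.
HMGCS1: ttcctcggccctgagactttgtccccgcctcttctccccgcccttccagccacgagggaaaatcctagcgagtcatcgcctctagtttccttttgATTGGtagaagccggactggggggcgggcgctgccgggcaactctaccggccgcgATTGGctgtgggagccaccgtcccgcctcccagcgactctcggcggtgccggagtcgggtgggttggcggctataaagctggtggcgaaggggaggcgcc
It holds 2 CCAAT boxes and none of the letters TCACNCCA, which says only that they are not in this window.

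The fatty acid arm was brighter on both treated arrays. With TGF-beta1 its median difference was 0.67 (1.59-fold), and 6 of its 9 enzymes passed the limit upward and 0 downward, with all 9 above the floor (12.6% and 11.5% of all genes above the floor did). The medians of the 2 arms differed by 0.0022 in this comparison. Among the suppliers of acetyl-CoA, ACSS2, which makes it from acetate, read 1053 untreated, 2654 with TGF-beta1 and 2551 under hypoxia. Both treated arrays were high and close to each other, by 1.33 and 1.28 over untreated. ACLY, which makes acetyl-CoA from citrate, read 4005, 5869 and 5617, again with both treated arrays high but within 1.5-fold (0.55 and 0.49). AACS, which activates the ketone body acetoacetate, was counted in this arm by its listed role. It read 414, 388 and 646 and was high under hypoxia alone. It differed by -0.09 with TGF-beta1 and by 0.64 under hypoxia, where its value is the arm's median.

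The chain-building and desaturating enzymes did not share one order of arrays. FASN, the fatty acid synthase, read 6869 untreated, 10809 with TGF-beta1 and 14069 under hypoxia, so the hypoxia array was highest. FADS2, the delta-6 desaturase of polyunsaturated fatty acids, read 1961, 3544 and 4470 in the same order. SCD, the stearoyl-CoA desaturase, read 4881, 5629 and 7709, 0.21 above untreated with TGF-beta1 and 0.66 under hypoxia. ELOVL6, which lengthens palmitate to stearate, was high with TGF-beta1 alone: it read 747, 1198 and 729, a difference of 0.68 with TGF-beta1 and -0.03 under hypoxia. FADS1, the desaturase that acts after FADS2, read 777, 1238 and 1008 (0.67 and 0.37). LPIN1, the phosphatidate phosphatase lipin that feeds glycerolipid synthesis, read 796, 1590 and 1209, a difference of 0.997 with TGF-beta1 and 0.60 under hypoxia.

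Of the 4 genes of the SREBP machinery, 1 passed the limit with TGF-beta1 and 0 under hypoxia, with medians of 0.24 and 0.30. Of all genes above the floor 12.6% passed it upward and 11.5% downward with TGF-beta1, and 8.64% and 5.69% under hypoxia. SREBF1 read 2741 untreated, 3147 with TGF-beta1 and 4042 under hypoxia, and SREBF2 read 756, 920 and 956. These precursor genes were brighter on both treated arrays, by 0.20 and 0.28 with TGF-beta1 and 0.56 and 0.34 under hypoxia, all within 1.5-fold. SCAP, the escort, read 4480, 4442 and 3746. INSIG1, which retains SCAP and is itself a target of SREBPs, read 2596, 4783 and 3135, at 0.88 with TGF-beta1 the 1 of the 4 genes past the limit. Of the sterol transporters, NPC1, which exports cholesterol from lysosomes, read 1893, 2226 and 2258. STARD4, a cytosolic sterol carrier and a known SREBP target, read 928, 783 and 626, lower on both treated arrays by -0.24 and -0.57. Transcript levels do not measure cleavage of the precursors, which controls their activity.

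**Figure D2:**
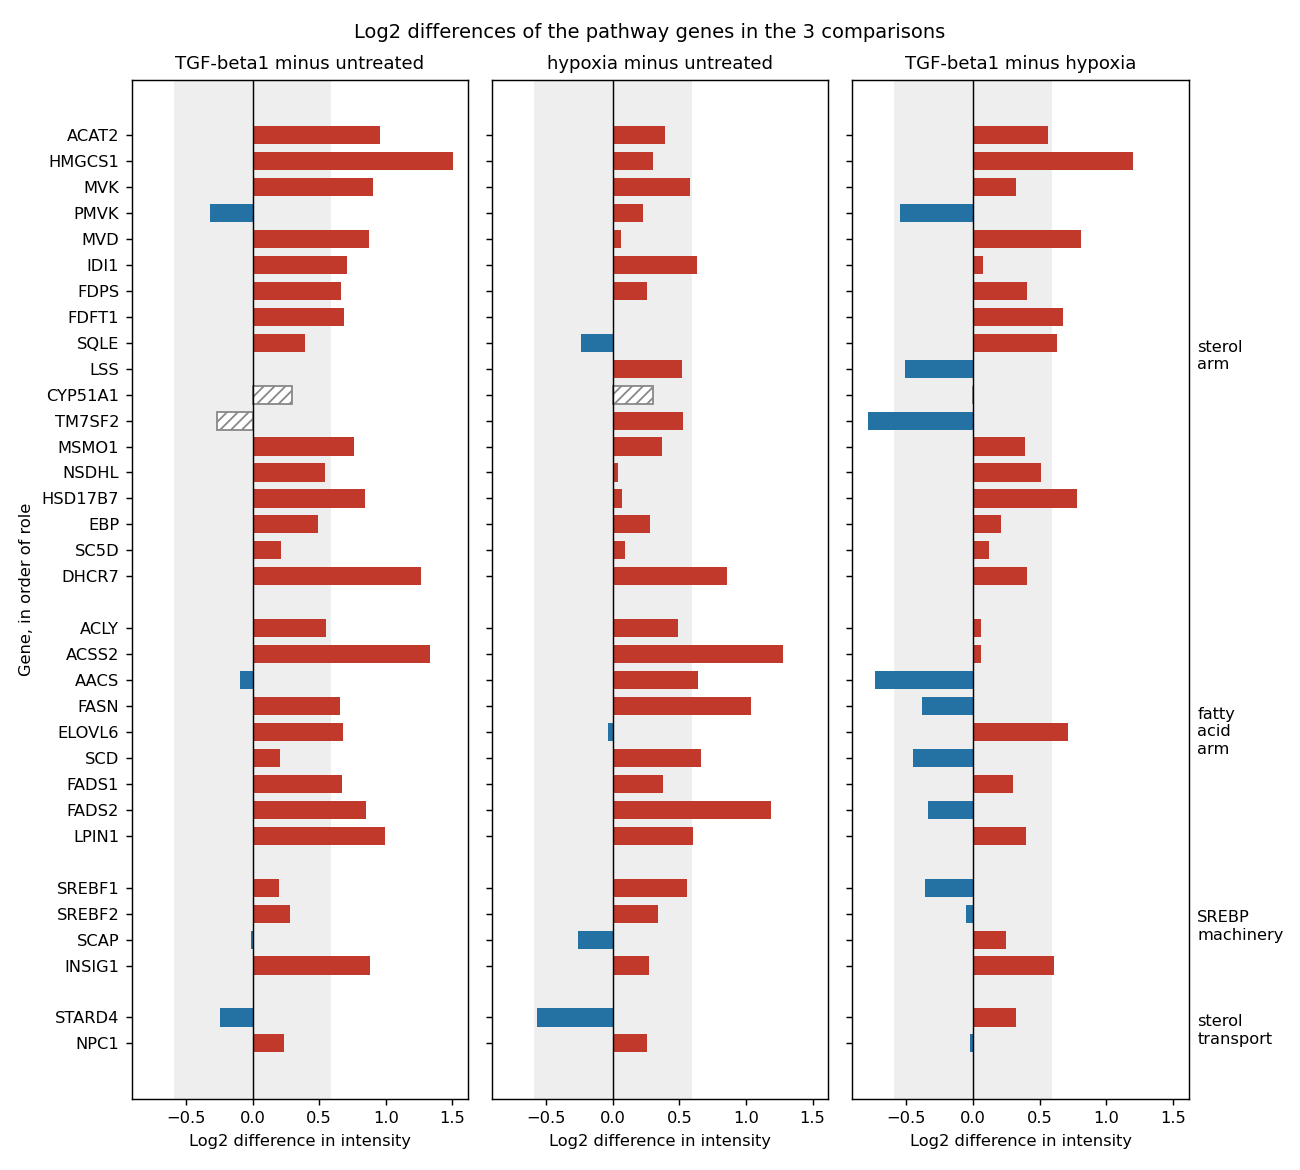
Log2 difference in intensity of each gene in the 3 comparisons, with red bars above 0, blue bars below 0, hatched bars for genes below the floor and a grey band for differences within 1.5-fold. In the sterol arm 10 bars pass the band with TGF-beta1 and 2 with hypoxia, and in the fatty acid arm 6 pass it in each.

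Under hypoxia 2 sterol arm and 6 fatty acid arm enzymes passed the limit upward. The sterol arm had a median difference from untreated of 0.29 (1.22-fold), and of 17 enzymes above the floor DHCR7 (0.86) and IDI1 (0.63), 2 genes, passed the limit upward and 0 downward. The fatty acid arm had a median of 0.64 (1.56-fold), and 6 of 9 enzymes passed it upward and 0 downward: ACSS2 (1.28), FADS2 (1.19), FASN (1.03), SCD (0.66), AACS (0.64) and LPIN1 (0.60). Of all 7820 genes above the floor 8.64% passed it upward and 5.69% downward, and the median over all named genes was 0.04. The first 3 of these enzymes were also at least 2-fold higher, against 1.65% of genes above the floor that were so much higher and 0.985% that were lower. The sterol median lay 0.35 below the fatty acid median on these arrays, and with 1 array per group this gap could not be tested. LPIN1 stood just inside the 1.5-fold limit and MVK, at 0.58, just outside it. Both comparisons used the same untreated array, so they are not independent of each other.

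The sterol genes whose enzymes use oxygen were not uniform under hypoxia. SQLE differed from untreated by -0.24, SC5D by 0.09, CYP51A1 by 0.30 below the floor and MSMO1 by 0.37. The oxygen-using desaturases of the fatty acid arm differed by 0.37 for FADS1, 0.66 for SCD and 1.19 for FADS2. Of these 7 genes, 6 read above untreated and SQLE read below it, where 53.7% of all named genes read above untreated.

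The TGF-beta1 array was then set against the hypoxia array, which leaves the untreated array out. The sterol arm was brighter with TGF-beta1, with a median difference of 0.40 (1.32-fold), and 14 of 18 enzymes read higher there by any amount, against 47.7% of all named genes. Of 17 above the floor, HMGCS1 (1.20), MVD (0.81), HSD17B7 (0.78), FDFT1 (0.67) and SQLE (0.63) passed the limit upward and TM7SF2 (-0.79) downward. The limit was passed upward by 13.2% and downward by 15.3% of all 7941 genes above the floor, and a 2-fold limit by 3.26% and 5.73%. HMGCS1 was the 1 enzyme of the arm past 2-fold. The share of sterol arm genes called higher, 29.4%, thus rests on 5 genes. In the fatty acid arm the median was 0.06, near the -0.03 of all named genes, with ELOVL6 (0.72) higher, AACS (-0.73) lower and 7 within 1.5-fold. INSIG1 was higher with TGF-beta1 by 0.61, just past the limit, and ACAT2, at 0.56, fell just short of it.

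The order of the 3 arrays was also counted gene by gene. The TGF-beta1 array was the highest of the 3 for 14 of 18 sterol arm genes and hypoxia for 4. The 4 include CYP51A1, which reached the gene median on no array and read 238 on each of the TGF-beta1 and hypoxia arrays. For the fatty acid arm the counts were 5 and 4, and the untreated array was highest for 0 genes of either arm. Among 8158 named genes that reached the gene median on some array, TGF-beta1 was highest for 39.6%, hypoxia for 35.8% and untreated for 24.7%. The untreated array was lowest for 15 of 18 sterol arm and 7 of 9 fatty acid arm genes, against 33.7% of the 8158 genes, for 35.8% of which TGF-beta1 and for 30.5% hypoxia was lowest.

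Other genes of sterol handling were taken from lists of neighbouring pathways. Of 11 named genes among other sterol and isoprenoid enzymes, 7 were above the floor with TGF-beta1. Of these 7, 3 passed the limit upward and 0 downward (12.6% and 11.5% of all genes above the floor did). TMEM97, a sterol-binding membrane protein, read 1215 untreated, 2508 with TGF-beta1 and 1213 under hypoxia. PDSS1, which makes the side chain of coenzyme Q, read 1517, 3084 and 1593. Both were high with TGF-beta1 alone, by 1.05 and 1.02. The third was ACAT1, the mitochondrial thiolase, at 0.96 with TGF-beta1 and 0.54 under hypoxia. Under hypoxia 0 of 7 genes of this list above the floor were past 1.5-fold, against 8.64% of all genes above the floor upward and 5.69% downward. LBR, a sterol reductase of the nuclear envelope, differed by 0.53 under hypoxia.

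Genes of sterol uptake and trafficking were brighter under hypoxia. Their median difference was 0.42, all 11 named genes read above untreated (53.7% of all named genes did), and 3 of 6 above the floor passed the limit upward and 0 downward (8.64% and 5.69% of all genes above the floor did). SCARB1, the HDL receptor, read 1004 untreated, 1584 with TGF-beta1 and 1710 under hypoxia, high on both treated arrays (0.66 and 0.77). The other 2 past the limit under hypoxia were the lysosomal proteins LIPA (0.65) and NPC2 (0.61), the latter named after its values were seen. With TGF-beta1 the list's median was 0.08, and SCARB1 was the 1 gene of 5 above the floor past 1.5-fold. In that comparison 12.6% of all genes above the floor passed the limit upward and 11.5% downward. GRAMD1A, a sterol transporter at membrane contacts, differed by 0.49 with TGF-beta1.

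Genes of the liver X receptors (LXRs), which sense surplus sterol, and of sterol efflux differed by a median of -0.25 with TGF-beta1. Of 7 above the floor, 2 passed the limit downward and 0 upward, against 11.5% and 12.6% of all genes above the floor, and 5 lay within it. APOE, the apolipoprotein that accepts exported cholesterol, read 1024 untreated, 216 with TGF-beta1 and 898 under hypoxia, a difference of -2.24. MYLIP, a ubiquitin ligase induced by LXRs, read 1293, 668 and 1302 (-0.95). Both were low on the TGF-beta1 array alone. Of 11 named genes, 3 read above untreated with TGF-beta1 and 9 did so under hypoxia, against 49.7% and 53.7% of all named genes. The median under hypoxia was 0.26, and 0 of 8 above the floor were past 1.5-fold. Of all genes above the floor 8.64% were higher and 5.69% lower there. CYP27A1, a sterol hydroxylase, differed by 0.57 under hypoxia, and ABCA1, the cholesterol exporter, by 0.35.

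The SREBP-processing and sterol-sensing genes differed by a median of 0.11 with TGF-beta1, and 0 of 7 above the floor passed the limit in either direction. With TGF-beta1 12.6% of all genes above the floor passed it upward and 11.5% downward, and under hypoxia 8.64% and 5.69%. MBTPS1, the site-1 protease that cleaves SREBPs, differed by -0.28. Under hypoxia 2 of 7 were higher: RNF139, a ubiquitin ligase, by 0.76, and the conjugating enzyme UBE2G2 by 0.70. UBE2G2 differed by 0.34 with TGF-beta1. Of the other genes of fatty acid synthesis, activation and elongation, 1 of 15 above the floor passed the limit upward with TGF-beta1 and 1 of 16 under hypoxia, and 0 passed it downward in either. In each case it was HSD17B12, a reductase of fatty acid elongation, at 3288 untreated, 5247 with TGF-beta1 and 5583 under hypoxia. The medians of this list were 0.12 and 0.10. Its upward shares were 6.67% and 6.25%, against 12.6% and 8.64% of all genes above the floor. TECR, which acts in the same elongation cycle, differed by 0.43 with TGF-beta1, and ACSL3, an acyl-CoA synthetase, by -0.37 under hypoxia.

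Genes of cell division were also high on the TGF-beta1 array. All 16 proliferation markers read higher with TGF-beta1, where 49.7% of all named genes did, and their median difference was 0.82. At least 1.5-fold higher were 11 of the 16, including E2F1 (1.35) and MKI67 (1.32), against 12.6% of all genes above the floor. The summed intensity of the 16 markers was 36264 untreated, 59916 with TGF-beta1 and 38506 under hypoxia. Under hypoxia their median was 0.12, while the fatty acid arm had a median of 0.64. None of the 16 was past 1.5-fold under hypoxia, the largest being E2F1 (0.58) and BUB1 (0.38). Of all genes above the floor 8.64% were higher and 5.69% lower there. The part of proliferation in the sterol arm's difference was not tested.

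**Figure D3:**
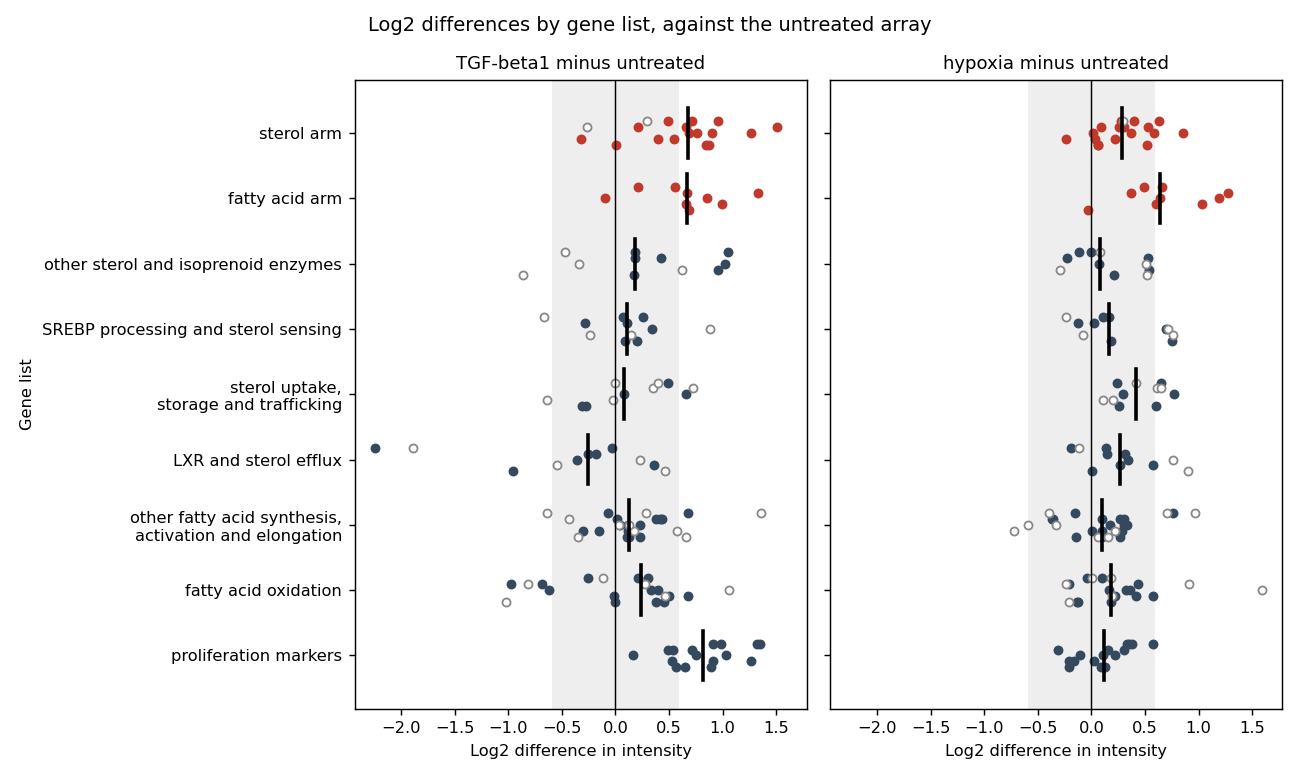
Log2 difference from untreated for each gene of the 2 arms (red) and of 7 related lists (dark blue), with TGF-beta1 on the left and hypoxia on the right; open circles are below the floor, black bars are medians over all named genes of a list and the grey band marks differences within 1.5-fold. The sterol arm and proliferation medians are 0.67 and 0.82 with TGF-beta1 and 0.29 and 0.12 under hypoxia, and the LXR and efflux median is -0.25 and 0.26.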

How the data were processed

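The deposited table holds the authors' processed intensity values on a linear scale, 1 column per array. Labelling used a NimbleGen one-colour Cy3 kit, per the labels' protocols. The sources used here give no method for background correction, probe summary, normalization or filtering. No value lies below 50, so the fold of a dim gene may be understated, and with no detection calls a dim value cannot be told from background. The number of arrays limits the precision. Columns were taken as already normalized and log2 transformed. Features were named through the platform annotation with symbols updated by Entrez identifier (15623 features) or by RefSeq accession (593), and 22356 were not named. A gene's value is the mean log2 over its features, and a gene above the floor with a difference of at least 1.5-fold counts as higher or lower. Every listed member is named, with the 2 genes of each related list that differed most from untreated, among those above the floor, with TGF-beta1 and under hypoxia. A few genes of the related lists are not reported here and were left out of their lists' counts and medians. Genes, lists and the rules were chosen with earlier results of these data known. Python 3.11.15, pandas 2.3.3 and statsmodels 0.14.6 were used. The alternatives were median, quantile and loess scaling, a pseudocount of 50, another feature summary, symbols without update, no floor and a 2-fold limit.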

Additional observations from a re-analysis of the deposited data

How the results depend on the processing

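No paired analysis was possible because each group has 1 array, and leaving out a replicate was not possible for the same reason. Of 150 recomputed medians and counts of the 2 arms, 140 stayed within 0.1 (medians) or 1.5 times (counts), 10 moved and 0 changed sign. A limit of 2-fold left 2 sterol arm and 1 fatty acid arm enzymes higher with TGF-beta1 than untreated. It left 0 and 3 higher under hypoxia, and for TGF-beta1 against hypoxia 1 and 0 higher with 0 and 0 lower. Centring each array on its median put the TGF-beta1 minus hypoxia medians at 0.52 for the sterol arm and 0.18 for the fatty acid arm. It shifts all genes of a comparison alike, and the median of all named genes moved from -0.03 to 0.09. For TGF-beta1 minus untreated that median moved from -0.0028 to 0.08. Of 690 recomputed values of single genes, 0 of those called changed sign, and 12 moved or crossed the 1.5-fold limit. Of these LPIN1 under hypoxia, at 0.60, fell short of the limit under 4 alternatives (0.56 to 0.58), AACS under hypoxia was at 0.58 with the pseudocount, while with TGF-beta1 NSDHL (0.62) and ACLY (0.63) passed it under median centring, and STARD4 under hypoxia passed it downward under the 3 scalings (-0.612 to -0.599). TGF-beta1 was highest for 15 of 18 sterol arm genes under each scaling, and untreated was lowest for 13. Scaling was also applied to the related lists, which was chosen after seeing the data: the LXR and efflux median with TGF-beta1 ranged from -0.26 to -0.17. The uptake median with TGF-beta1, 0.08, was 0.13 to 0.17 under the scalings. Median centring moved the genes higher with TGF-beta1 from 11 to 14 for proliferation, the genes lower from 3 to 2 for fatty acid oxidation, and the uptake genes higher under hypoxia from 3 to 2.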

Other observations

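Fatty acid oxidation, the opposite process to synthesis, had members in both directions with TGF-beta1. Of 20 named genes 14 were above the floor, and 1 was at least 1.5-fold higher and 3 lower, with a median of 0.24. Of all genes above the floor 12.6% were higher and 11.5% lower, so members in both directions are not particular to this list. CPT1A, the carnitine transferase that admits long-chain fatty acids to mitochondria and the rate-limiting step, read 1037 untreated, 529 with TGF-beta1 and 1399 under hypoxia, a difference of -0.97 and 0.43. HADHB, a subunit of the trifunctional protein, read 5957, 3700 and 5153 (-0.69 with TGF-beta1), while its partner HADHA, named after its value was seen, differed by 0.21. ECI1, an enoyl-CoA isomerase, differed by 0.58 under hypoxia, where 0 of 13 above the floor were past 1.5-fold. Of all genes above the floor 8.64% were higher and 5.69% lower there.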
